A study of Mus musculus with 12 samples.

Results

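Primary mouse aortic smooth muscle cells in calcification medium that also received an empty lentiviral vector were compared with cells in the same medium for which no virus is named. These are 6 of the 12 libraries of the study, 3 in each group, chosen by the treatment that their labels name. Values were compared as FPKM, the fragments of a gene divided by its length and by the size of the library. A gene was tested where its mean over the 6 libraries reached 1 FPKM, which held for 10769 of the 25745 genes in the deposited table. The other 6 libraries were 3 labelled αKlotho lentivirus in calcification medium and 3 in control medium without added phosphate. They entered the fit only through the shared estimate of spread.

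All cells came from wild type C57BL/6J mice aged 5 to 6 weeks. They grew out of pieces of thoracic aorta whose adventitia and endothelium had been taken off, and were used at passages 5 to 8. Both compared groups were kept for 7 days with 3.0 mM sodium phosphate, and the vector group also received the empty virus. The labels name an empty vector for 1 group and no virus for the other, but do not say whether the uninfected group had a mock treatment or the promoter that the vector carries. They also do not say whether the 3 replicates of a group were separate animals or cultures, so p-values here reflect only how far these samples spread, and that spread may be technical. No viral sequence is among the genes of the table, so the label could not be checked from the values. Kl, the mouse gene for αKlotho, was listed at 0 in all 6 libraries. Of the 3 libraries labelled αKlotho lentivirus, 2 were also at 0 and 1 held 1 fragment of it.

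Smooth muscle cells of the arterial wall normally contract, and in high phosphate they can lose contractile proteins, take on features of bone-forming cells and deposit mineral. A lentivirus copies its RNA genome into DNA and inserts it into the host chromosomes. An empty vector does so without a gene of interest and serves as the control for infection itself. Cells can sense viral nucleic acid through receptors that switch on interferon and, through it, a large set of antiviral genes. Growing cells also spend much of their messenger RNA on short, abundant transcripts for ribosomes and for the respiratory chain, whose subunits are encoded partly in the nucleus and partly in the mitochondrial genome.

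The 6 libraries held between 16644000 and 19033000 fragments, as implied by the deposited values. Of the smooth muscle markers, 23 of 24 were in the table and none was at 0 in all 6 libraries. Their summed level was 1540, 2344 and 2616 FPKM in vector replicates 1, 2 and 3, against 1043, 2234 and 2924 FPKM in calcification replicates 1, 2 and 3. Markers of adventitial fibroblasts and progenitors summed to more in each library. They reached 4171, 6108 and 3741 FPKM in the vector libraries, against 4045, 4295 and 3690 FPKM in the calcification libraries. Of these 17 markers 15 had a mean of at least 1 FPKM. Sums over different sets of markers do not give shares of cells. Macrophage markers summed to 150, 67.9 and 45.4 FPKM in the vector libraries, against 124, 43.7 and 40.6 FPKM in the calcification libraries. Of the 20 macrophage markers 10 reached a mean of 1 FPKM, and none was at 0 in all 6 libraries. In the first principal component of log2(FPKM + 1), which held 39.7% of the variance, replicate 3 of each group lay close together (6.28 for vector, 8.46 for calcification). Replicates 1 and 2 lay far apart on it (15.8 and 15.9 for vector, -34.2 and -12.2 for calcification). The second component held 32.3% of the variance, and there the order followed the replicate number more than the group. Vector and calcification lay at 25.1 and 15.2 for replicate 1, -7.66 and -24.95 for replicate 2, and -2.89 and -4.73 for replicate 3.

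No gene passed the test between vector and calcification cells. With limma on log2(FPKM + 1), 0 of 10769 genes (0.0%) reached an adjusted p under 0.05, and the lowest adjusted p was 0.288. At an unadjusted p under 0.05 there were 1514 genes (14.1%), against 538.5 expected at that level. Of these, 432 (4.01%) were higher and 1082 (10.0%) were lower in vector cells. limma-voom on the fragment numbers recovered from the table also called 0 genes, and 1588 had an unadjusted p under 0.05. All statements on single genes below are therefore differences that did not pass the correction, given with their values.

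Most differences were small. The median absolute log2 fold change was 0.19, the 95th percentile was 0.53, and 15 genes exceeded 1. As many genes had a positive fold change (50.0%) as a negative one. The 3 vector libraries all lay above the 3 calcification libraries for 666 genes (6.18%), and all below them for 1201 genes (11.2%). The count of higher genes at an unadjusted p under 0.05 depended on single libraries. It was 1161 without calcification replicate 3, 121 without calcification replicate 1, 198 without calcification replicate 2, 238 without vector replicate 1 and 215 without vector replicate 2. With replicates 2 and 3 alone, 1.31% of genes were higher and 5.17% lower at that level, and fold changes were positive for 51.8% and negative for 48.2%. The count of lower genes was 589 without vector replicate 1, 709 without vector replicate 2 and 509 without calcification replicate 2. The FPKM of a library summed to 345456, 337698 and 316817 in the vector libraries, against 298155, 296504 and 322296 in the calcification libraries. Rescaling every library to the same total moved the median fold change of all genes by -0.103 on the log2 scale. The 432 higher and 1082 lower genes, a share of 28.5% higher, became 130 and 1590 (7.56% higher) at equal totals, and 305 and 1265 (19.4% higher) at equal upper quartiles. Fold changes below are on the deposited scale.

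The main pattern in the data was that short genes and genes rich in G and C stood higher in vector cells, and long genes and genes poor in G and C stood lower. Across 10744 genes with a known exon length, the log2 fold change correlated with log2 length at -0.536 (Spearman -0.572) and with GC content at 0.395 (0.417). These are correlations across genes, which share libraries and are not independent replicates. GC content and log2 length correlated with each other at -0.211. Among the 1075 shortest genes, with 100 to 1228 exon bases, 77.3% had a positive fold change, and the median was 0.28. Among the 1075 longest, from 9242 bases upward, 8.19% had a positive fold change, and the median was -0.29. By GC content the medians were 0.15 in the 1075 genes richest in G and C (77.0% positive) and -0.20 in an equal number of the poorest (20.6% positive). Genes were also split evenly into short, middle and long and, separately, into low, middle and high GC content. The 1593 genes that were short and of high GC content had a median of 0.24, and the 1623 that were long and of low GC content had a median of -0.28. Short genes of low GC content had a median of 0.04, and long genes of high GC content -0.06.

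**Figure D1:**
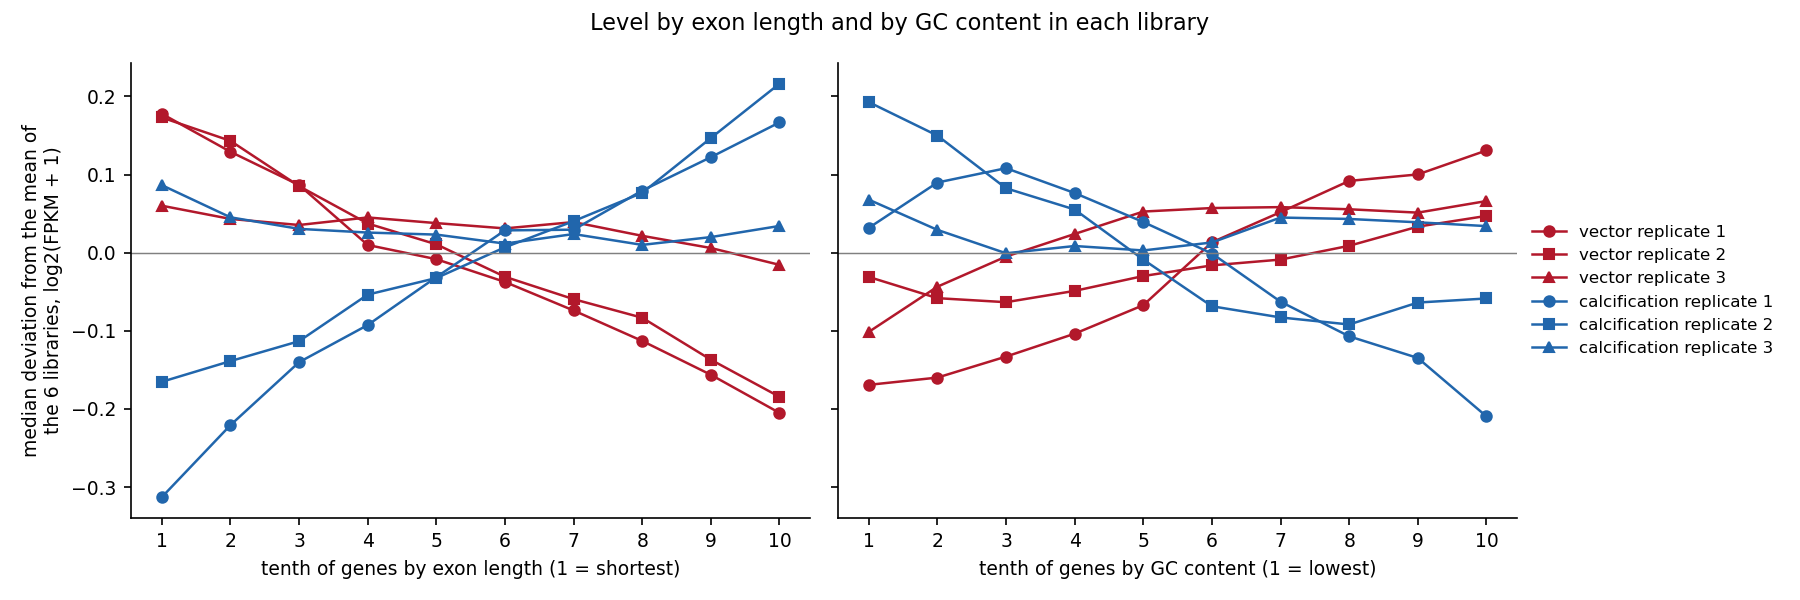
The vertical axis is the median deviation of genes from their own mean over the 6 libraries, in log2(FPKM + 1), and the horizontal axis numbers 10 equal bins of genes by exon length (left, shortest first) or GC content (right, lowest first). Each line is 1 library, with vector in red and calcification in blue. Replicates 1 and 2 of the groups run in opposite directions with length, and both replicates 3 stay between -0.10 and 0.09 in all bins.

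The trend differed between replicates of the same group. The slope per doubling of exon length was -0.0914, -0.0790 and -0.0152 on the log2 scale in vector replicates 1, 2 and 3, against 0.110, 0.0854 and -0.00983 in calcification replicates 1, 2 and 3. The groups did not overlap, but calcification replicate 3 lay next to vector replicate 3. The mean slopes were -0.0619 ± 0.0409 in vector and 0.0619 ± 0.0633 in calcification (SD, n = 3), a difference of -0.124. All slopes were taken on the deviation of each gene from its own mean over the 6 compared libraries. The group means are therefore equal and opposite by construction, and only their difference is informative. An exact two-sided permutation test over the libraries gave p = 0.1, which is the smallest p that 3 against 3 can reach. Per 10 points of GC content the slope was 0.159, 0.0413 and 0.0706 in the vector libraries, against -0.144, -0.127 and -0.00053 in the calcification libraries, with the same exact p = 0.1. With both properties in the model at once, the difference was -0.109 per doubling of length (exact permutation p = 0.2) and 0.135 per 10 points of GC content (exact permutation p = 0.1). The other 6 libraries of the series ranged between -0.0208 and 0.146 per doubling of length, and between -0.241 and -0.0736 per 10 points of GC content. The GC slopes of the 3 vector libraries were thus above those of all 9 others, as a description of these libraries. Whether the trends came from the cells, the RNA or the libraries was not tested.

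**Figure D2:**
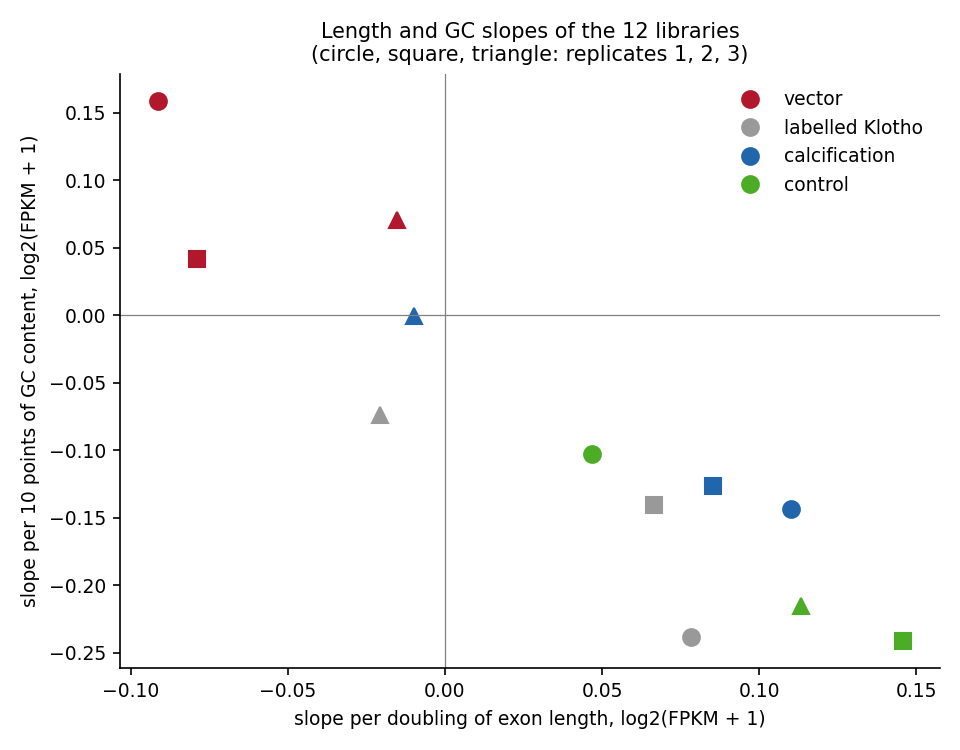
Each point is 1 of the 12 libraries, placed by its slope of log2(FPKM + 1) per doubling of exon length (horizontal) and per 10 points of GC content (vertical). Vector libraries (red) lie to the upper left, and calcification replicate 3 (blue triangle) lies at -0.00983 and -0.00053, nearer to vector replicate 3 than to the other calcification libraries.

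Because of this trend, the medians of the gene lists below, and some single genes, are also given after smooth trends with GC content and log2 length were taken out of each library, called the corrected value. After correction 10744 genes were tested, 0 were called (lowest adjusted p = 0.639), and 829 (7.72%) were at an unadjusted p under 0.05, of which 323 (3.01%) were higher and 506 (4.71%) lower in vector. Fold changes were then positive for 48.6% of genes and negative for 51.4%. Of the 1514 genes at an unadjusted p under 0.05 as deposited, 546 were also there after correction, which is 36.1% of the deposited set and 65.9% of the corrected set. The median absolute log2 fold change was 0.13 after correction.

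Genes for proteins of the cytosolic ribosome, which makes the proteins of the cell, formed the highest group. All 79 tested members had a positive fold change, with a median of 0.44 (all genes -0.00), and 18 had vector libraries entirely above calcification libraries (6.18% of all genes). Among them 29 were higher at an unadjusted p under 0.05 and none lower, against 4.01% of all genes higher. The count was 63 without calcification replicate 3 and 58 without vector replicate 3, but 4 or 5 without replicate 1 or replicate 2 of either group. Large-subunit genes (47, median 0.44) and small-subunit genes (32, median 0.42) did not differ in direction. These transcripts are short, with a median of 1739 exon bases. After correction all 79 were still positive, with a median of 0.25, and with replicates 2 and 3 alone 77 were positive, with a median of 0.24.

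The list took 12.6%, 11.6% and 9.87% of all FPKM in vector replicates 1, 2 and 3, against 8.18%, 8.80% and 10.7% in calcification replicates 1, 2 and 3. Vector replicate 3 thus lay below calcification replicate 3. Rps12, a protein of the small subunit, had 358, 341 and 308 FPKM in the vector libraries, against 242, 176 and 264 FPKM in the calcification libraries. The groups did not overlap, and the log2 fold change was 0.58 ± 0.17 (SE; adjusted p = 0.288 by limma, corrected value 0.52). Rpl7a of the large subunit had 108, 138 and 106 FPKM in vector cells, against 59.4, 60.0 and 76.5 FPKM in calcification cells. Its log2 fold change of 0.84 ± 0.29 (SE) was the highest of the list. Rps24, another small-subunit gene, had 125, 123 and 108 FPKM in vector cells, against 92.5, 80.6 and 97.2 FPKM in calcification cells. With Rps3, Rps15a and Rps19 it is 1 of only 4 members longer than the median tested gene, and these 4 had a median fold change of 0.45. Ribosomal protein genes have many processed copies in the genome, and how reads with several matches were counted is not given in the sources used here. Single members are uncertain for that reason.

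Nuclear genes of oxidative phosphorylation, the respiratory chain and ATP synthase of mitochondria, stood nearly as high. Of 92 listed genes 77 were in the table and 76 were tested. Of these 74 had a positive fold change (median 0.36), 21 were higher at an unadjusted p under 0.05 (4.01% of all genes) and none lower, and in 14 vector lay above without overlap (6.18% of all genes). The count of 21 was 58 without calcification replicate 3, but 3 without calcification replicate 1, 5 without calcification replicate 2, 6 without vector replicate 2 and 9 without vector replicate 1. Corrected values were positive for 74 members, with a median of 0.21, and replicates 2 and 3 alone gave a median of 0.22. At equal totals 71 were positive (median 0.24), and 6 were higher at an unadjusted p under 0.05. By complex, the positive members were 33 of 35 in complex I, which takes electrons from NADH (median 0.36), and 4 of 4 in complex II, succinate dehydrogenase (0.28). They were 9 of 9 in complex III (0.43), 10 of 10 in complex IV, cytochrome oxidase (0.43), and 17 of 17 in complex V, the ATP synthase (0.37). The list took 1.79%, 1.74% and 1.69% of all FPKM in vector libraries, against 1.19%, 1.42% and 1.75% in calcification libraries, so that the replicates 3 were nearly alike.

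Ndufa4, a small subunit found with cytochrome oxidase and counted by its name with complex I, had the smallest p of the list. It stood at 69.3, 87.4 and 73.9 FPKM in vector cells, against 46.8, 47.6 and 68.2 FPKM in calcification cells. No vector library overlapped a calcification library, and the log2 fold change was 0.51 ± 0.16 (SE; adjusted p = 0.291 by limma, corrected value 0.44). Cox7b, a subunit of cytochrome oxidase, had 36.1, 44.9 and 41.7 FPKM in vector cells, against 31.7, 30.3 and 32.8 FPKM in calcification cells. Here too the groups were separate, at a log2 fold change of 0.36 ± 0.11 (SE). Atp5h, a subunit of the ATP synthase stalk, had 91.4, 89.4 and 76.2 FPKM in vector cells, against 50.5, 49.6 and 81.5 FPKM in calcification cells. Its calcification replicate 3 overlapped the vector libraries. The 2 members with a negative fold change were Ndufs1 (-0.06), whose 8086 exon bases make it the longest of complex I, and Ndufa12 (-0.07). Ndufa12 had 10.7, 8.56 and 10.2 FPKM in vector cells, against 7.37, 5.90 and 24.3 FPKM in calcification cells, and only calcification replicate 3 lay above the vector libraries.

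Some promoters of these genes carry the letters bound by NRF1, a transcription factor known for nuclear genes of mitochondria. A promoter in the RefSeq table (GRCm38.p6, 250 bases before to 50 after the start) was matched for 63 of the 76 members. The letters searched were GCGCA, any base and GCGC, on both strands. They stood in 17 of the 63 (27%), in 12.2% of the tested genes with a promoter (8091), and in 5.19% of all 27025 promoters. They stood in 8.62% of the promoters of cytosolic ribosomal genes, 19.4% of those of mitochondrial ribosomal genes, 24% of those of proteasome genes and 11.1% of those of long chromatin regulators. The letters AANATGGCG, bound by YY1, stood in 15.9% of the oxidative phosphorylation promoters and 6.48% of those of tested genes. Of the 6 lists searched, their share was highest, at 18.5%, in the long chromatin regulators, which stood lower in vector, and it was 16% in proteasome genes and 14.9% in mitochondrial ribosomal genes. A match of letters is a description and does not show binding. The 2 promoters below belong to the members with the smallest p among those that hold the NRF1 letters in the 150 bases before the start. The letters are in capitals. Atp5h is shown at chr11:115419920-115420069 and Ndufa8 at chr2:36049339-36049488, both on the minus strand and 5′ to 3′.
Atp5h: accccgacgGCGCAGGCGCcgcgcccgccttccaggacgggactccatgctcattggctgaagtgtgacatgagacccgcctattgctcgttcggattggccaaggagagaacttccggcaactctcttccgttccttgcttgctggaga
Ndufa8: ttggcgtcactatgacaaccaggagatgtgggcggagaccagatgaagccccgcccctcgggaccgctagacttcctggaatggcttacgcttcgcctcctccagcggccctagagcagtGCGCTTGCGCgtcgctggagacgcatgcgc
Ndufa8, an accessory subunit of complex I, had 96.4, 92.1 and 84.5 FPKM in vector cells, against 52.4, 67.1 and 82.2 FPKM in calcification cells. The groups did not overlap, though the replicates 3 nearly met.

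The subunits made inside mitochondria went the other way. All 12 tested protein-coding transcripts of the mitochondrial genome were negative (median -0.35 as deposited and -0.41 after correction), whereas 50.0% of all genes were. They are short, with a median of 870.5 bases, and poor in G and C (37.4%), and their median length is below that of the nuclear genes above, which were higher. Together they took 1.72%, 1.53% and 1.19% of all FPKM in vector replicates 1, 2 and 3, against 1.90%, 2.003% and 1.89% in calcification replicates 1, 2 and 3. The 3 vector shares lay below the 3 calcification shares. In control medium the shares were 2.06%, 2.75% and 2.16%. In the libraries labelled αKlotho lentivirus, in calcification medium, they were 2.66%, 2.62% and 2.26%. Without vector replicate 3 the median was -0.11, and 3 of 12 were positive. Without calcification replicate 2, 2 of 12 were positive (median -0.30).

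mt-Nd5, a core subunit of complex I and the longest coding transcript of the genome, had 251, 249 and 233 FPKM in vector cells, against 339, 390 and 357 FPKM in calcification cells. The groups did not overlap and lay tight, and the log2 fold change was -0.56 ± 0.15 (SE; adjusted p = 0.288 by limma). Correction left it at -0.58. It was the only one of the 12 at an unadjusted p under 0.05 as deposited, and after correction there were 5. Of all genes, 10.0% were lower at that level as deposited and 4.71% after correction. mt-Co1, the catalytic subunit of cytochrome oxidase, was the most abundant and had 2688, 2234 and 1857 FPKM in vector cells, against 2775, 2410 and 2711 FPKM in calcification cells. The ranges overlapped, at a log2 fold change of -0.23 ± 0.19 (SE). mt-Nd2 of complex I had 513, 475 and 252 FPKM in vector cells, against 507, 593 and 527 FPKM in calcification cells, and only vector replicate 3 was far below the rest. The nuclear genome holds partial copies of mitochondrial genes, and how reads with several matches were counted is not given in the sources used here.

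The coding sequences of a nuclear member that stood higher and of a mitochondrial member that stood lower show how they differ in base composition. Both are from GENCODE M21 on GRCm38 and written 5′ to 3′, with the first codon in capitals. Ndufa4 is read from the minus strand of chr6:11900538-11907365 (246 coding bases, 48.8% GC). mt-Nd5 is read from the plus strand of chrM:11742-13562 (1821 coding bases, 37.2% GC), of which the first 150 are shown.
Ndufa4: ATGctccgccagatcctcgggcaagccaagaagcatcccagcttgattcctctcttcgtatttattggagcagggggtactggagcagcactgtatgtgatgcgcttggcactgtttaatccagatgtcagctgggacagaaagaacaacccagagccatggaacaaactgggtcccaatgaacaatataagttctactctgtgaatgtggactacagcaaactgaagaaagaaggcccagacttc
mt-Nd5: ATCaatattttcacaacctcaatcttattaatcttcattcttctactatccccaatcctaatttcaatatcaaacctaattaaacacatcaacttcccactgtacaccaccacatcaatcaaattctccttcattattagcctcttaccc

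**Figure D3:**
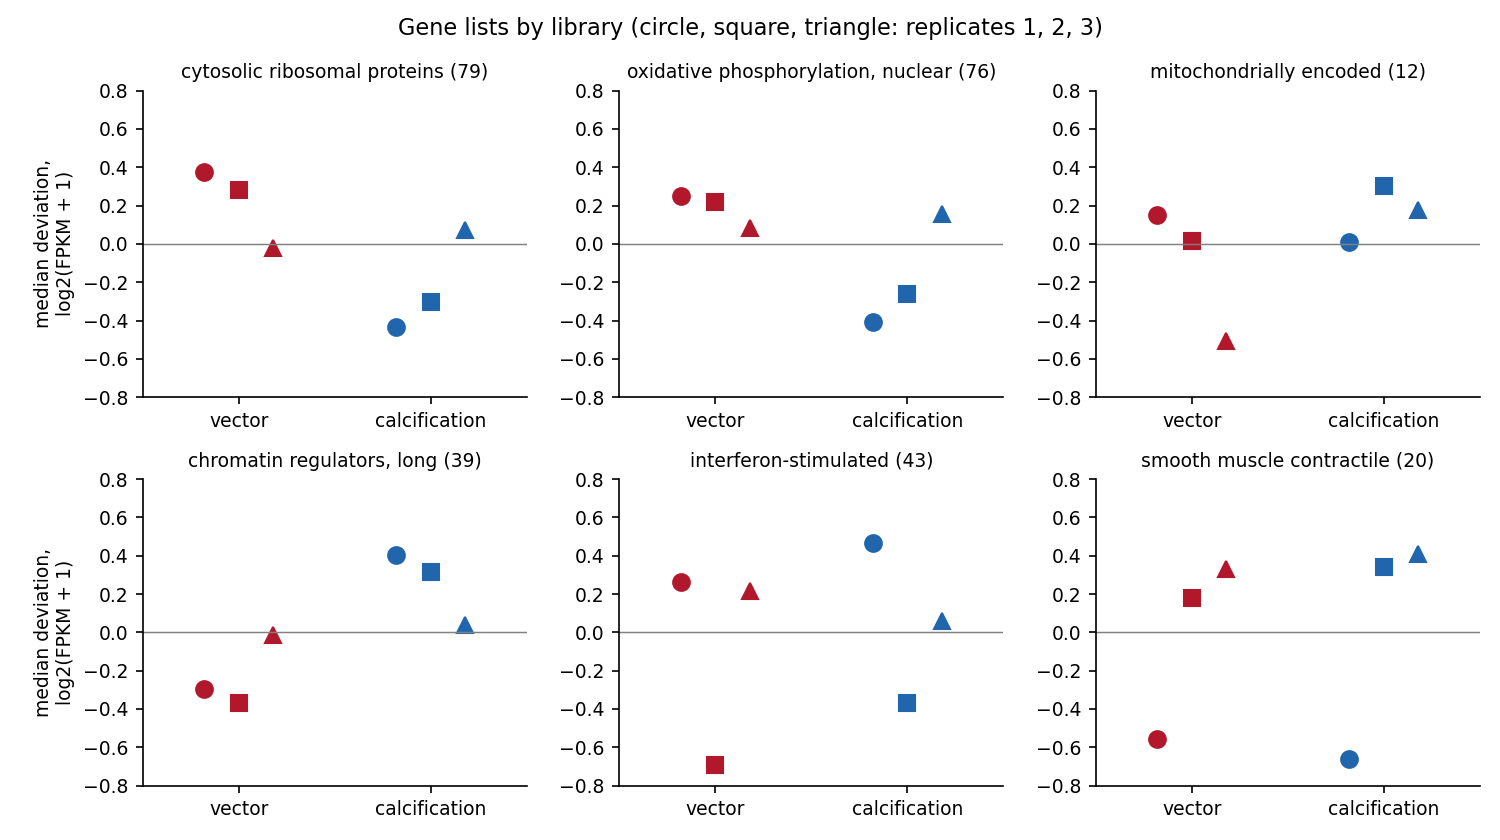
Each point is the median over the members of a list of their deviation from their own mean over the 6 libraries, in log2(FPKM + 1), with vector libraries left in red and calcification libraries right in blue, and the number of members in brackets. Ribosomal and oxidative phosphorylation lists separate replicates 1 and 2 and nearly meet at replicate 3, the mitochondrially encoded list is lowest in vector replicate 3 (-0.51), and the interferon and contractile lists follow the replicate number in both groups.

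Other groups of short genes for large machines shared the direction of the ribosome. Genes of the mitochondrial ribosome, which translates the mitochondrial messages, were positive in 72 of 76 (median 0.30, corrected 0.19). Of these 14 were higher at an unadjusted p under 0.05 (4.01% of all genes). The count was 43 without calcification replicate 3, 2 without calcification replicate 1, 4 without calcification replicate 2, 6 without vector replicate 1 and 9 without vector replicate 2. At equal totals it was 4, with 59 of 76 positive (median 0.19). Mrpl24 of its large subunit had 20.9, 19.6 and 16.7 FPKM in vector cells, against 10.8, 12.8 and 15.7 FPKM in calcification cells. Its groups did not overlap, at a log2 fold change of 0.52 ± 0.16 (SE; adjusted p = 0.295 by limma). The 21 members longer than the median tested gene were positive in 20, with a median of 0.24, where the length trend of all genes runs the other way.

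Proteasome genes, whose products degrade tagged proteins, were positive in 29 of 31 (median 0.29, corrected 0.18). At an unadjusted p under 0.05, 6 were higher and 1 lower, against 4.01% and 10.0% of all genes. The 6 became 19 without calcification replicate 3, 0 without calcification replicate 2, 1 without vector replicate 2, 2 without calcification replicate 1 and 3 without vector replicate 1. At equal totals they became 0, and 25 of 31 members were positive (median 0.17). The core particle was positive in 14 of 14 (median 0.36) and the regulatory particle in 15 of 17 (median 0.17). The exception with the smallest p was Psmd1, the longest member at 7265 exon bases, which had 14.4, 12.4 and 12.4 FPKM in vector cells, against 20.04, 15.4 and 16.4 FPKM in calcification cells. All 3 vector libraries lay below all 3 calcification libraries, at a log2 fold change of -0.37 ± 0.12 (SE; corrected value -0.19).

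Small proteins of the spliceosome core and of RNA polymerase II were positive in 26 of 27 (median 0.31, corrected 0.22). At an unadjusted p under 0.05, 6 were higher (16 without calcification replicate 3 and between 1 and 3 without any other library), against 4.01% of all genes. Lsm7, part of a ring that binds spliceosomal RNA, had 11.4, 11.7 and 14.6 FPKM in vector cells, against 1.90, 6.12 and 10.7 FPKM in calcification cells. The vector libraries were alike and the calcification libraries far apart, and the log2 fold change was 1.11 ± 0.39 (SE; adjusted p = 0.306 by limma). Polr2l, a small subunit shared by the RNA polymerases, had 61.1, 65.7 and 59.6 FPKM in vector cells, against 25.5, 46.7 and 51.2 FPKM in calcification cells. Its groups did not overlap either.

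Glycolysis genes, which break down glucose, were positive in 16 of 18 (median 0.23, corrected 0.18), with none at an unadjusted p under 0.05 and none with separate groups. Without calcification replicate 3, 6 were higher and the median was 0.35, and without calcification replicate 2 it was 0.14. At equal totals 14 of 18 were positive (median 0.11). Tpi1, which interconverts the triose phosphates, had 196, 121 and 125 FPKM in vector cells, against 91.5, 86.2 and 150 FPKM in calcification cells. The ranges overlapped through calcification replicate 3. Antioxidant genes were positive in 27 of 34 (median 0.21, corrected 0.11), and in 22 at equal totals (median 0.09). At an unadjusted p under 0.05, 1 was higher (8 without calcification replicate 3 and 0 at equal totals), against 4.01% of all genes. The 1 was Prdx1, a peroxide-removing enzyme, with 210, 236 and 216 FPKM in vector cells, against 167, 156 and 198 FPKM in calcification cells. Its groups did not overlap, at 0.35 ± 0.13 (log2, SE; corrected value 0.40).

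**Figure D4:**
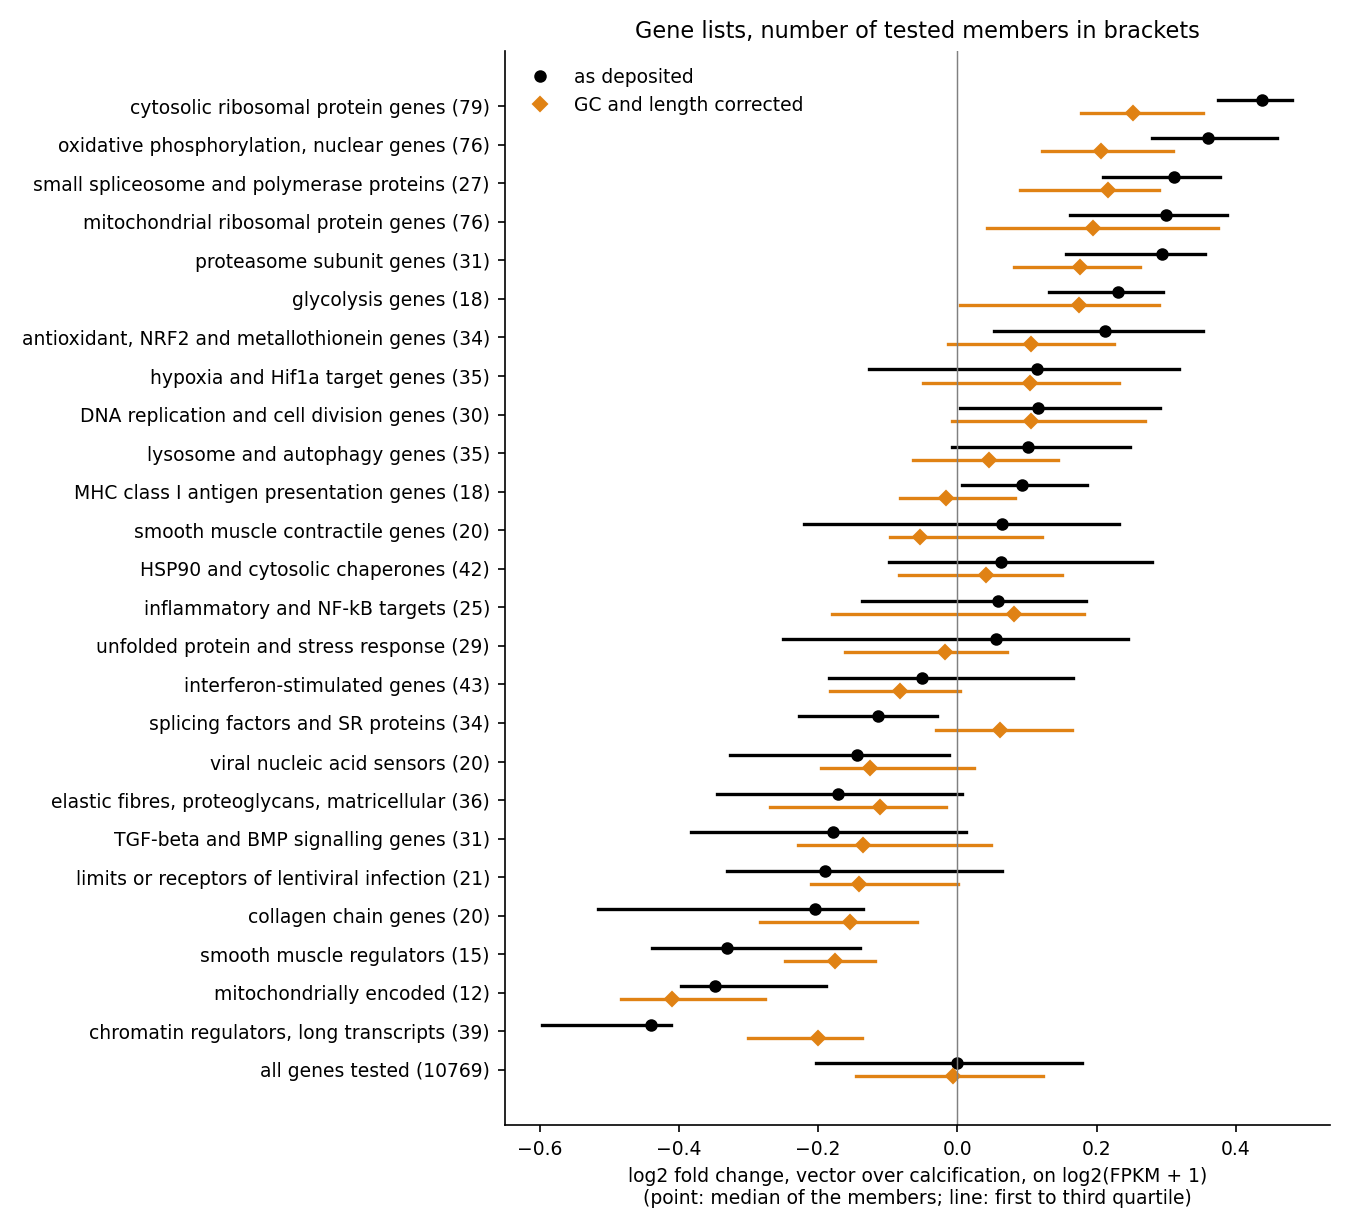
Points are medians and lines run between the lower and upper quartiles of the log2 fold change, vector over calcification, in each gene list, as deposited (black) and after correction for GC content and length (orange). Ribosomal genes lie highest (median 0.44), long chromatin genes lowest (-0.44), and most medians move toward 0 with the correction, whereas mitochondrially encoded genes move from it (-0.35 and -0.41).

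Chromatin and transcription regulators with long transcripts were at the other end. None of the 39 tested members had a positive fold change, the median was -0.44, and 21 had vector libraries entirely below calcification libraries (11.2% of all genes). Unadjusted p was under 0.05 for 29 of them, all lower, against 10.0% of all genes. The count was 15 without vector replicate 1, 14 without vector replicate 2, 15 without calcification replicate 1 and 18 without calcification replicate 2. The list was drawn up as one of long transcripts and has a median of 14270 exon bases, and the longest of all genes also stood lower. After correction the median was -0.20 (all genes -0.01), with 2 positive members. At an unadjusted p under 0.05, 9 were then lower and 1 higher, against 4.71% and 3.01% of all genes. Ncor1, a corepressor of nuclear receptors, had 3.67, 2.85 and 3.89 FPKM in vector cells, against 6.45, 5.97 and 5.01 FPKM in calcification cells. Bptf, a chromatin remodelling subunit, had 2.36, 2.26 and 2.89 FPKM in vector cells, against 5.90, 4.70 and 3.24 FPKM in calcification cells. Both had separate groups, with the smallest gap at the replicates 3.

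Splicing factors and SR proteins were negative in 27 of 34 (median -0.11), and their median was 0.06 after correction, with 23 positive. The deposited median was -0.02 without vector replicate 1 and -0.05 without calcification replicate 2. Their as-deposited direction thus turned when length and GC content were accounted for. Son, a long splicing cofactor of nuclear speckles, had 7.10, 7.87 and 10.1 FPKM in vector cells, against 15.9, 12.6 and 10.7 FPKM in calcification cells. The vector libraries lay below, at a log2 fold change of -0.59 ± 0.19 (SE), and the corrected value was -0.28. Hnrnpu, an RNA-binding scaffold protein of the nucleus, had a log2 fold change of -0.30 ± 0.11 (SE) as deposited and of 0.05 after correction.

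Regulators of the smooth muscle phenotype were lower in most cases. Of 15 tested members 12 were negative (median -0.33, corrected -0.18), 6 were lower at an unadjusted p under 0.05 (10.0% of all genes), and in 4 vector lay below without overlap (11.2% of all genes). The median was -0.22 without vector replicate 1, and the 6 became 2 without vector replicate 1, 2 without calcification replicate 2 and 3 without calcification replicate 1. Mef2a, a transcription factor of muscle genes, had 2.13, 2.09 and 2.37 FPKM in vector cells, against 3.99, 3.78 and 3.20 FPKM in calcification cells. The vector libraries were tight and separate, at a log2 fold change of -0.54 ± 0.12 (SE; adjusted p = 0.288 by limma). Its corrected value was -0.16. Tead1, the DNA-binding partner of the Hippo coactivator Yap1, had 5.95, 9.08 and 11.7 FPKM in vector cells, against 15.2, 21.3 and 12.98 FPKM in calcification cells. Yap1 itself had 16.4, 17.5 and 23.4 FPKM in vector cells, against 27.3, 29.3 and 21.9 FPKM in calcification cells. Tead1 did not overlap between groups and Yap1 did, through its replicates 3.

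Contractile genes showed no common direction. Of 20 tested members 12 were positive (median 0.06, corrected -0.05, and -0.05 at equal totals), none was at an unadjusted p under 0.05, and the median ran between -0.46 without calcification replicate 1 and 0.31 without vector replicate 1. They followed the replicate number instead: replicate 1 was the lowest in both groups for 19 of 20, against 18.2% of all genes. Acta2, smooth muscle actin, had 245, 625 and 744 FPKM in vector cells, against 128, 580 and 923 FPKM in calcification cells. The spread within a group was far wider than the difference between groups (log2 fold change 0.24 ± 0.91, SE). Myh11, smooth muscle myosin, had 1.32, 12.2 and 31.0 FPKM in vector cells, against 2.58, 23.1 and 34.1 FPKM in calcification cells. Cnn1, the actin-binding calponin, had 3.95, 19.1 and 38.4 FPKM in vector cells, against 2.82, 18.5 and 44.7 FPKM in calcification cells. Both had the same order of replicates in both groups.

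Most matrix genes had a negative fold change. Collagen chains were negative in 18 of 20 (median -0.20, corrected -0.15), with 1 lower at an unadjusted p under 0.05 (10.0% of all genes). But with replicates 2 and 3 alone 11 of 20 were positive (median 0.01). The median was -0.07 without calcification replicate 1, and without calcification replicate 3 it was -0.41, with 3 lower at an unadjusted p under 0.05. They took 0.567%, 0.726% and 0.861% of all FPKM in vector cells, against 1.05%, 1.01% and 0.678% in calcification cells, and the ranges overlapped. Elastic fibre genes, large proteoglycans and matricellular proteins were negative in 27 of 36 (median -0.17, corrected -0.11), with a median of 0.01 in replicates 2 and 3 alone, -0.01 without vector replicate 1 and -0.32 without vector replicate 3. Within that list the 27 members longer than the median tested gene had a median of -0.24 and the 9 shorter ones 0.05. Lox, the enzyme that crosslinks collagen and elastin, had 456, 677 and 724 FPKM in vector cells, against 804, 1193 and 818 FPKM in calcification cells. The vector libraries lay below, at a log2 fold change of -0.60 ± 0.22 (SE; adjusted p = 0.319 by limma). Fbn1, the fibrillin of elastic microfibrils, had 31.5, 46.4 and 62.3 FPKM in vector cells, against 68.6, 76.6 and 52.9 FPKM in calcification cells, and the ranges overlapped.

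TGF-beta and BMP signalling genes, which act on matrix production and on bone formation, were negative in 23 of 31 (median -0.18, corrected -0.14). The median was -0.06 without vector replicate 1, -0.11 without calcification replicate 2, -0.29 without calcification replicate 1 and -0.28 without vector replicate 3. At an unadjusted p under 0.05, 6 were lower and none higher, against 10.0% and 4.01% of all genes. The 6 became 0 without calcification replicate 2, 2 without vector replicate 2 and 3 without vector replicate 1. The 22 members longer than the median tested gene were negative in 20 (median -0.29), and the 9 shorter ones were positive in 6 (median 0.11). Of the receptors, Bmpr1a had 5.57, 6.90 and 5.91 FPKM in vector cells, against 10.3, 10.6 and 7.71 FPKM in calcification cells. Bmpr2 had 1.66, 2.22 and 2.83 FPKM in vector cells, against 4.05, 4.46 and 3.20 FPKM in calcification cells. Both were lower in vector without overlap, at log2 fold changes of -0.56 ± 0.20 and -0.61 ± 0.22 (SE), and their corrected values were -0.34 and -0.18.

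The interferon response showed no common direction between vector and calcification cells. Of 43 tested interferon-stimulated genes 21 were positive (median -0.05, corrected -0.08). At an unadjusted p under 0.05, 1 was higher and 2 were lower, against 4.01% and 10.0% of all genes. The sign of the median turned with single libraries: it was 0.21 without vector replicate 2 and 0.17 without calcification replicate 1, and -0.29 without calcification replicate 2. The number of positive members ran between 7 without calcification replicate 2 and 33 without vector replicate 2. These genes followed the replicate number, with replicate 2 lowest in both groups for 30 of 43, against 13.6% of all genes. Isg15, a ubiquitin-like antiviral protein, had 212, 69.1 and 326 FPKM in vector cells, against 178, 85.0 and 218 FPKM in calcification cells. Its spread within each group exceeded the difference (log2 fold change 0.18 ± 0.99, SE). Ifit2, which binds RNA, had 3.44, 4.79 and 3.84 FPKM in vector cells, against 6.50, 8.02 and 4.82 FPKM in calcification cells. Its groups did not overlap, by a small margin, at -0.55 ± 0.18 (log2, SE; adjusted p = 0.296 by limma). Ifi27, a small interferon-induced membrane protein, had 239, 257 and 218 FPKM in vector cells, against 141, 186 and 212 FPKM in calcification cells. It was higher without overlap, at 0.42 ± 0.18 (log2, SE; corrected value 0.19).

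Sensors of viral nucleic acid and their adaptors were negative in 15 of 20 (median -0.14, corrected -0.13), but single libraries set that direction. Without vector replicate 2, 10 of 20 were positive and the median was 0.01. It was -0.06 without calcification replicate 1, -0.25 without vector replicate 1 and -0.33 without calcification replicate 2. Eif2ak2, the kinase PKR that is activated by double-stranded RNA, had 6.24, 5.67 and 7.55 FPKM in vector cells, against 9.62, 11.7 and 10.4 FPKM in calcification cells. The groups were separate, at a log2 fold change of -0.63 ± 0.17 (SE; adjusted p = 0.288 by limma, corrected value -0.48). Irf3, the transcription factor that many of these sensors activate, had 13.7, 16.2 and 14.9 FPKM in vector cells, against 8.58, 10.7 and 12.9 FPKM in calcification cells. It was higher without overlap, at 0.46 ± 0.15 (log2, SE; corrected value 0.33). Cgas, Tlr7, Tlr9 and Aim2, which sense DNA or RNA, were below the filter in these cells.

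Host genes that limit lentiviral infection, and receptors that lentiviral particles can use, were negative in 13 of 21 (median -0.19, corrected -0.14). The median was -0.06 without calcification replicate 1 and -0.02 with replicates 2 and 3 alone. At an unadjusted p under 0.05, 4 were lower and none higher, against 10.0% and 4.01% of all genes. The 4 became 1 without calcification replicate 1, 1 without vector replicate 2, 2 without vector replicate 1 and 2 without calcification replicate 2. Pphln1, a subunit of the HUSH complex that silences integrated DNA, had 4.66, 4.75 and 5.57 FPKM in vector cells, against 8.76, 7.24 and 7.17 FPKM in calcification cells. The vector libraries were tight and well below, at -0.54 ± 0.12 (log2, SE; adjusted p = 0.288 by limma, corrected value -0.42). Setdb1, the histone methyltransferase that works with that complex, had 2.52, 2.50 and 3.10 FPKM in vector cells, against 4.26, 3.83 and 3.21 FPKM in calcification cells. Lrp1, a receptor of the LDL receptor family, had a log2 fold change of -0.53 ± 0.24 (SE) with overlapping groups. MHC class I antigen presentation genes were positive in 14 of 18 (median 0.09, corrected -0.02, and -0.03 at equal totals), with none at an unadjusted p under 0.05. Their direction turned with single libraries: 5 of 18 were positive without calcification replicate 2 (median -0.12) and 8 without vector replicate 1 (median -0.01), whereas the median was 0.29 without vector replicate 2, 0.34 without calcification replicate 1 and 0.02 without vector replicate 3.

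Single genes with large differences are named as descriptions, since none was called. They were taken from genes at an unadjusted p under 0.05 whose groups did not overlap and whose higher group averaged 5 FPKM or more. Those named as furthest above were Lsm7, Rpl7a, Polr2l, Rpl17 and Ndufa2, which belong to the lists above, and Pigyl, Crip1, Pcbd2 and Smim26. Their log2 fold changes lay between 0.64 and 1.11, and all kept their sign after correction. Crip1, a small LIM-domain protein, had 47.7, 57.0 and 39.7 FPKM in vector cells, against 18.5, 34.4 and 36.8 FPKM in calcification cells. Pigyl, a small protein of GPI anchor synthesis, had 34.8, 32.1 and 22.7 FPKM in vector cells, against 18.5, 12.2 and 21.8 FPKM in calcification cells. Their log2 fold changes were 0.71 ± 0.25 and 0.75 ± 0.24 (SE), and the gaps between the groups at replicate 3 were small.

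Under the same conditions the gene furthest below was Hipk2, a nuclear kinase that acts on transcription factors and p53. It had 11.1, 4.92 and 14.9 FPKM in vector cells, against 26.9, 22.6 and 19.8 FPKM in calcification cells. The groups did not overlap, at a log2 fold change of -1.20 ± 0.31 (SE; adjusted p = 0.288 by limma, corrected value -1.09). Klf9, a transcription factor induced by glucocorticoids, had 13.8, 13 and 11.5 FPKM in vector cells, against 36.0, 25.3 and 15.9 FPKM in calcification cells. Cyp1b1, a cytochrome P450 enzyme, had 62.9, 60.8 and 64.1 FPKM in vector cells, against 179, 98.0 and 72.3 FPKM in calcification cells. In both genes the vector libraries were alike and the calcification libraries were spread, with replicate 3 nearest to vector.

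Abca1, the cholesterol exporter, had 4.48, 4.50 and 5.34 FPKM in vector cells, against 10.0, 10.4 and 6.21 FPKM in calcification cells. Zswim6, a zinc-finger protein, had the smallest p of those named, with 2.87, 3.41 and 4.20 FPKM in vector cells, against 7.23, 7.13 and 5.10 FPKM in calcification cells. Its log2 fold change was -0.73 ± 0.15 (SE; adjusted p = 0.288 by limma, corrected value -0.65). The rest of the 10 were Man2a1, Utrn, Secisbp2l, Tead1 and the histone gene H4c18, with log2 fold changes between -0.97 and -0.72, and all kept their sign after correction.

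**Figure D5:**
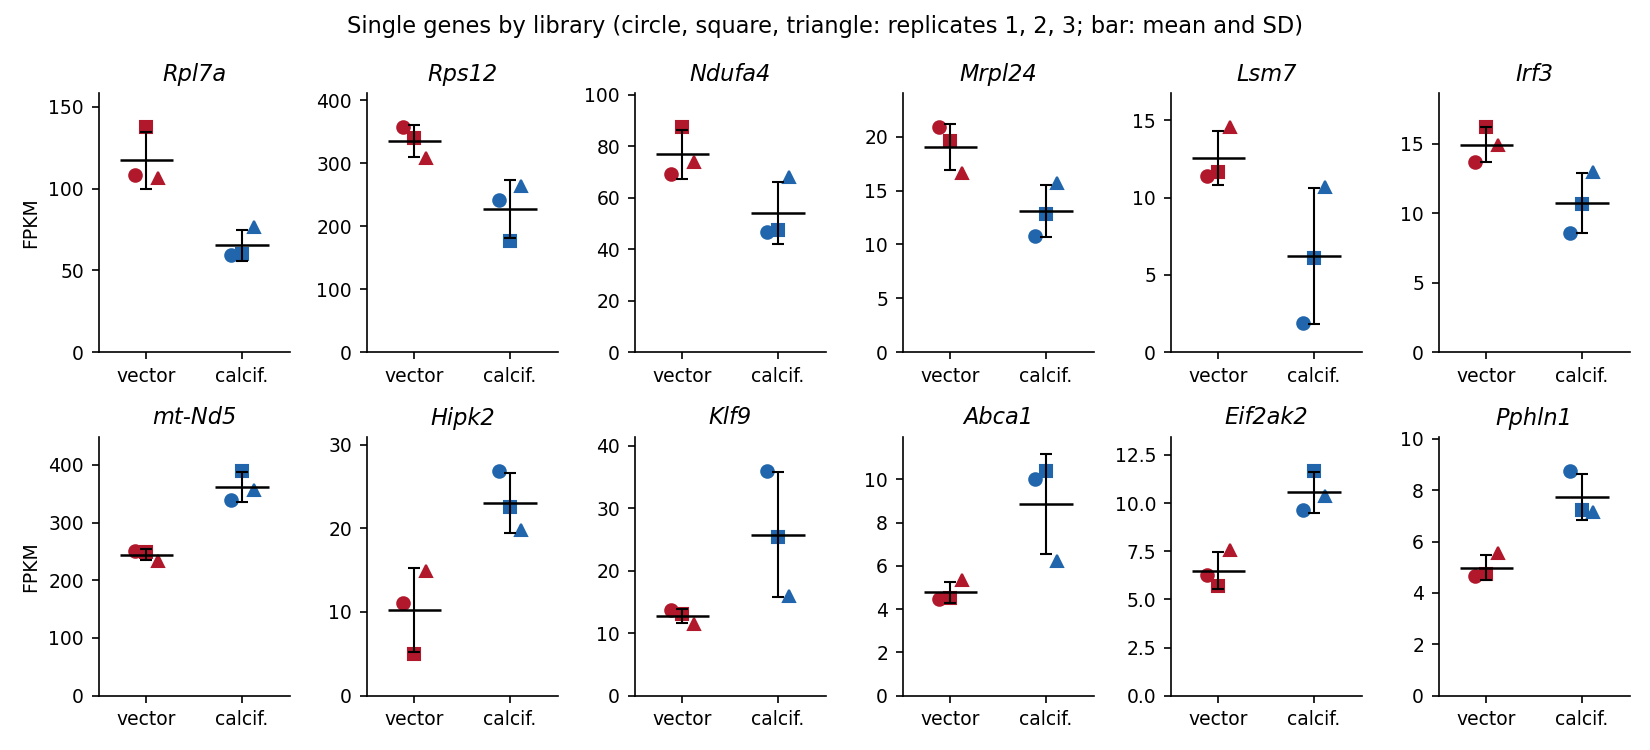
FPKM of 12 named genes in each library, with vector left in red and calcification right in blue, and bars for the mean and SD of the 3 libraries. The groups do not overlap in any of the 12, which was a condition for naming the genes furthest above and below. Calcification replicate 3 (triangle) is the calcification library nearest to the vector mean in 10 of the 12 panels, as in Klf9 (15.9) and Abca1 (6.21).

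None of the genes of the study's question was called. Hif1a, the oxygen-regulated transcription factor, had 12.4, 8.64 and 12.9 FPKM in vector cells, against 16.1, 12.7 and 17.3 FPKM in calcification cells. It was lower within each replicate number, though the ranges overlapped, at a log2 fold change of -0.42 ± 0.22 (SE; adjusted p = 0.388 by limma, corrected value -0.22). Hypoxia and Hif1a target genes were positive in 21 of 35 (median 0.11, corrected 0.10, and 0.01 at equal totals). At an unadjusted p under 0.05, 1 was higher and 1 lower, against 4.01% and 10.0% of all genes. Without calcification replicate 3, 8 were higher and 0 lower, and the median was 0.04. The median was also lower, at 0.07, without vector replicate 1. Hsp90aa1, the inducible HSP90 chaperone, had 88.1, 83.8 and 66.4 FPKM in vector cells, against 67.6, 112 and 120 FPKM in calcification cells. Hsp90ab1, the constitutive form, had 620, 499 and 514 FPKM in vector cells, against 558, 555 and 505 FPKM in calcification cells. Neither separated the groups.

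Sox9, a regulator of cartilage, had 10.3, 9.56 and 11.7 FPKM in vector cells, against 13.3, 13.4 and 14.4 FPKM in calcification cells. Among the 7 tested members of the list of bone and cartilage factors and bone markers, it was the only one with separate groups. Its log2 fold change was -0.36 ± 0.16 (SE; adjusted p = 0.354 by limma, corrected value -0.34). Runx2, the main regulator of bone-forming cells, had 0.839, 1.14 and 1.04 FPKM in vector cells, against 1.97, 1.43 and 0.855 FPKM in calcification cells. Spp1, osteopontin, had 99.0, 68.4 and 114 FPKM in vector cells, against 126, 47.4 and 105 FPKM in calcification cells. Both overlapped. Alpl, the alkaline phosphatase of mineral deposition, was below the filter, with 1.58, 0.413 and 0.183 FPKM in vector cells, against 0.977, 0.253 and 0.272 FPKM in calcification cells. Of the mineralization inhibitors and phosphate handling genes, 9 of 12 were negative (median -0.04, corrected -0.11). The direction rested on single libraries: 7 of 12 were positive without calcification replicate 1 (median 0.11), and 8 of 12 with replicates 2 and 3 alone (median 0.10). Xpr1, the phosphate exporter, had 1.09, 1.30 and 1.56 FPKM in vector cells, against 2.59, 2.51 and 1.92 FPKM in calcification cells. It was lower without overlap at -0.53 ± 0.16 (log2, SE; adjusted p = 0.288 by limma), but at -0.12 after correction.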

How the data were processed

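A single table with values of 12 libraries was deposited by the authors. Its header names no unit, and the deposited values behave as FPKM: multiplied by exon length in GENCODE M21, between 98.06% and 98.32% of values under 100 fragments per library came out whole, within 0.05 of a fragment. CASAVA 1.8.2, STAR 2.4 and DESeq2 3.12 were used per the submitters' processing notes, which name both GRCm38 and GRCm39 and no roles. The counting tool, the handling of multiple matches and the use of strand were not given in the sources used here. Overlapping, antisense and near-identical genes are therefore uncertain. The counting precision behind a value follows from between 16644000 and 19033000 fragments per library, and 3 fragments on a gene of 2 kb correspond to at most 0.0901 FPKM in these 6 libraries, which covers counting error only.

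Values of log2(FPKM + 1) from all 12 libraries entered 1 fit in limma 3.58.1 under R 4.3.3, using a mean-variance trend and Benjamini-Hochberg adjustment over the genes tested. Fold changes are vector over calcification and understate the change of low genes. Length is the union of all annotated exons, found for 99.2% of genes, and the correction for GC content and length took smooth trends (mgcv 1.9-3) out of each library. Gene lists are described by counts and medians, with no test. Named genes are those of the study's question, the 10 highest and 10 lowest fold changes at an unadjusted p under 0.05 whose higher group averaged 5 FPKM or more and whose groups did not overlap, unnamed gene models and pseudogenes passed over, and up to 3 members per list with the smallest p. Some other members were named after their values were seen. Some genes that these rules name are not reported here. The members, lists and rules were chosen with earlier results of these data known.

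Same-numbered vector and calcification libraries deviated from their group means with correlations across genes of 0.311, 0.488 and -0.0641. Differently numbered ones gave between -0.49 and 0.0896. Replicates 1 and 2 thus shared deviations across the groups, and replicates 3 did not. The labels do not say whether the numbers pair the samples, and the main fit did not pair them. Its SEs therefore include variation shared by replicate number. Counts with the number as a block are given below. Within the vector and the calcification group no pair of libraries agreed within sampling noise, and other pairs were not compared. Alternatives covered the pseudocount (0.1 and 0.5), the filter, scaling, fewer libraries, the replicate block, the correction, limma-voom on recovered fragments and leaving out each library.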

Additional observations from a re-analysis of the deposited data

How the results depend on the processing

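No gene was called under any alternative except without a filter on low values, where 1 was: U2, a gene model with 0.301, 0.3005 and 0.297 FPKM in vector libraries and 0 in the other 9, of unknown exon length (adjusted p = 3.14e-05 by limma, log2 fold change 0.38). Its values follow what 1 fragment is worth in vector replicates 1, 2 and 3 (57.5, 57.4 and 56.7 FPKM times bases). They thus stand for the same fragment number in each, which leaves almost no spread behind that p. At this level the call is not read as a difference between groups. The 432 higher genes at an unadjusted p under 0.05 became 707 without a filter, 130 at equal total FPKM and 141 with replicates 2 and 3 alone, and lay between 121 and 1161 when 1 library was left out. The 1082 lower genes became 495 at a filter of 5 FPKM, 506 with the correction and 557 with replicates 2 and 3 alone, and lay between 509 and 1360 when 1 library was left out. With the replicate number as a block and 12 libraries, 688 were higher and 1471 lower, with 0 called, and with 6 libraries 412 and 1018. The median of long chromatin genes was -0.20 with the correction, with and without the replicate block, and -0.64 by limma-voom. Under every alternative in which they were computed, the medians of cytosolic ribosomal genes (0.24 to 0.57), nuclear oxidative phosphorylation genes (0.21 to 0.53) and mitochondrially encoded genes (-0.53 to -0.11) kept their sign, as did the slopes with length (-0.160 to -0.0996) and GC content (0.146 to 0.226) and the difference in mitochondrial share (-0.570 to -0.308 percentage points). The interferon median (-0.05) changed sign to 0.21 without vector replicate 2, 0.17 without calcification replicate 1, 0.02 with replicates 2 and 3 alone and 0.01 at a filter of 5 FPKM. Among single genes, Vkorc1 (-0.0442), Cdkn2a (-0.0078) and Hnrnpu (0.0469) changed sign with the correction, also with the block, and Tnfrsf11b (0.0035) and Col14a1 (0.00576) with replicates 2 and 3 alone. The cause was not tested. With 3 libraries a group, differences of the size of the median SE (0.17 on the log2 scale) could not be told from the spread. Larger ones were not called either, including those of the 15 genes whose absolute log2 fold change exceeded 1.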

Other observations

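Some gene groups that belong to no group above differed within themselves. Lysosome and autophagy genes were positive in 26 of 35 (median 0.10, corrected 0.05, and -0.02 at equal totals). At an unadjusted p under 0.05, 3 were higher and 3 lower, against 4.01% and 10.0% of all genes. Without calcification replicate 2, 17 of 35 were positive (median -0.02), and the median was 0.24 without calcification replicate 1, 0.15 without vector replicate 2 and 0.04 without vector replicate 1. Atp6v1a, the catalytic subunit of the proton pump that acidifies lysosomes, had 29.4, 25.5 and 27.7 FPKM in vector cells, against 40.2, 39.1 and 35.7 FPKM in calcification cells. The groups were well apart, at a log2 fold change of -0.46 ± 0.11 (SE; adjusted p = 0.288 by limma, corrected value -0.28). Gabarapl2, which coats autophagosomes, had 28.2, 30.8 and 27.7 FPKM in vector cells, against 22.9, 20.2 and 24.95 FPKM in calcification cells. It stood higher without overlap, at 0.34 ± 0.11 (log2, SE; corrected value 0.30).

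Unfolded protein and integrated stress response genes were positive in 16 of 29 (median 0.06, corrected -0.02, and -0.07 at equal totals), and the median ran between 0.01 and 0.10 when 1 library was left out. Atf6, a membrane-bound sensor of protein folding in the endoplasmic reticulum, had 6.27, 7.82 and 6.56 FPKM in vector cells, against 12.8, 12.9 and 7.94 FPKM in calcification cells. It was lower without overlap, by a narrow margin at replicate 3. Immediate early genes were positive in 12 of 23 (median 0.06, corrected -0.14, and -0.07 at equal totals), and the median ran between -0.02 and 0.07 when 1 library was left out. Klf6, a transcription factor of that list, had 37.4, 43.9 and 43.9 FPKM in vector cells, against 77.2, 68.8 and 50.7 FPKM in calcification cells, at a log2 fold change of -0.62 ± 0.16 (SE; adjusted p = 0.288 by limma, corrected value -0.49). Cell division genes were positive in 22 of 30 (median 0.12, corrected 0.11), and in 17 at equal totals (median 0.02). The median was 0.01 without calcification replicate 1 and 0.31 without calcification replicate 3. Replicate 3 was the highest in both groups for 21 of 30, against 10.4% of all genes. Top2a, which untangles DNA before division, went against that list with 2.92, 2.86 and 2.98 FPKM in vector cells, against 3.68, 4.55 and 4.90 FPKM in calcification cells, and 9 kb of exons.

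The 569 tested processed pseudogenes, copies of spliced messages, had a positive fold change in 73.5% (median 0.22), and their corrected median was 0.00. Other short classes mostly shared that direction. Transcribed processed pseudogenes (median of 862 exon bases) were positive in 76.5% of 34, and noncoding RNAs of bidirectional promoters (1080) in 91.7% of 12. Intergenic noncoding RNAs (1072) were positive in 57.9% of 76, and antisense genes (896) in 54.7% of 53 (median 0.02). Unprocessed pseudogenes, with a median of 681 exon bases and 45.1% GC, were positive in 38.1% of 21 (median -0.12). Of 9886 protein-coding genes 48.4% were positive. By nuclear chromosome the share of positive genes ran from 32.7% on chromosome 18 (median -0.12) to 63.9% on chromosome 7 (median 0.09). Genes of these chromosomes differed in median GC content (47.5% and 52.8%) and median length (4806 and 3782 bases). Their corrected medians were -0.04 and 0.02. None of 14 tested genes of the mitochondrial genome was positive.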
